A study of Mus musculus with 22 samples.

Results

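A set of 10 immediate early genes was followed across 6 cell types of the mouse nervous system. They were taken by gene symbol (Fos, Fosb, Fosl2, Junb, Egr1, Egr3, Egr4, Arc, Nr4a1 and Npas4), and all 10 of them were found among the 55385 genes quantified and passed the filter on low counts that left 20524 genes for testing. Immediate early genes are transcribed within minutes of a stimulus, without the need for new protein, when calcium and kinase signals activate transcription factors that are already bound at their promoters. In the brain they are used as marks of recent neuronal activity, and most of them encode transcription factors that act on a later wave of genes. Fos, Fosb, Fosl2 and Junb encode subunits of the dimeric factor AP-1, Egr1, Egr3 and Egr4 are zinc finger factors, Nr4a1 is an orphan nuclear receptor, Npas4 is a neuronal bHLH-PAS factor, and Arc encodes a synaptic protein that takes part in the removal of AMPA receptors.

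The libraries held messenger RNA bound to ribosomes that carry an HA-tagged RPL22 protein (RiboTag), which was precipitated from brain homogenates of 6-week-old mice. All mice were Rpl22 fl/+ and carried 1 Cre transgene, which decides in which cells the tagged protein is made. Rbp4-Cre was used with hippocampus for dentate gyrus granule cells (DG) and with cortex for layer V cortical neurons (L5). Gabra6-Cre was used with cerebellum for cerebellar granule cells (CGC), and Dlx6a-Cre with hippocampus for inhibitory interneurons (IN), where each library pooled 2 mice. Aldh1-cre (an Aldh1l1-cre/ERT2 line in the methods) and Tmem119-cre were used with cortex for astrocytes (AS) and microglia (MG); per the study's methods both lines are inducible, and their mice received tamoxifen. No group without a Cre and no stimulated group was used here, so the values describe the state of the tissue at dissection.

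There were 3 biological replicates per cell type. Of the 22 libraries, 18 entered the comparisons, 1 for each replicate, and 4 were second sequencings of the same replicate in batch 2. All IN and MG libraries came from batch 2 and the rest of the 18 from batch 1. The 4 second sequencings, 1 each of DG, L5, CGC and AS, link the batches, and comparisons with batch as a covariate and within a batch were run as well. Totals lay between 38270477 and 71440915 estimated counts per library. In 5 of the 6 cell types the markers of the label had their highest summed level in the libraries of that label. The exception was the layer V list, where Fezf2, a layer V factor, was highest in L5 (84.6 to 86.6 TPM), but Bcl11b was higher in DG (147 to 171 TPM, against 32.9 to 35.6) and Etv1 in CGC (712 to 745, against 76.4 to 89.4). Oligodendrocyte markers were present in IN (4 of 4 genes, summed level 2390 to 2560 TPM, against 92.3 to 857 in the other types). L5 replicate 1 was labelled female in batch 1 and male in batch 2, and Xist stood at 2.45 and 2.13 TPM and the Y-linked gene Ddx3y at 0.09 and 0.03 TPM in its libraries.

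Promoter sequence bears on these genes because the cAMP response element (CRE), bound by the activity-dependent factor CREB, is one of the sites through which they are induced. Of the 10 genes, 7 had a promoter in the RefSeq table of build GRCm38.p6 (Fos, Fosb, Fosl2, Junb, Egr4, Nr4a1 and Npas4). The 250 bases before the RefSeq start held the core letters of the CRE, TGACG, or CGTCA on the other strand, in 6 of 7 of them. The same letters occurred in 17.8% of all 32851 promoter windows of that length. The windows of Fos (chr12:85473640-85473889, plus strand), Fosb (chr7:19310046-19310295, minus strand) and Nr4a1 (chr15:101266596-101266845, plus strand) are shown because these genes were far lower in 1 of the IN replicates, as described later, and that of Fosl2 (chr5:32136222-32136471, plus strand) because it is the window without these letters. They are written 5′ to 3′ in the direction of the gene, and the capitals mark TGACG or CGTCA.
Fos: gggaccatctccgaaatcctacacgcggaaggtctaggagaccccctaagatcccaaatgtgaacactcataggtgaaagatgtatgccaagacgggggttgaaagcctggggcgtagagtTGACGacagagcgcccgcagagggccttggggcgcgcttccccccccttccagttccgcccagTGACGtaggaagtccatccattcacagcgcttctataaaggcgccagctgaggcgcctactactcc
Fosb: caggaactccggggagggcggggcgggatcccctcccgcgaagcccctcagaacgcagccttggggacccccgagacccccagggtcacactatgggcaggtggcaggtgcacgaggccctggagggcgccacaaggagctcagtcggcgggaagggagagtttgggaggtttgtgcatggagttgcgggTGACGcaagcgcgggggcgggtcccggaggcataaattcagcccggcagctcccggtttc
Nr4a1: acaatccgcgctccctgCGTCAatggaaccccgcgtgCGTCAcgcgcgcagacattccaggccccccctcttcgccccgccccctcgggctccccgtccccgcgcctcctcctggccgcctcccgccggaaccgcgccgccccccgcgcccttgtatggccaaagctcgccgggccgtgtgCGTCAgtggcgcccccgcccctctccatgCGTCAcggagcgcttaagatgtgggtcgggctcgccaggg
Fosl2: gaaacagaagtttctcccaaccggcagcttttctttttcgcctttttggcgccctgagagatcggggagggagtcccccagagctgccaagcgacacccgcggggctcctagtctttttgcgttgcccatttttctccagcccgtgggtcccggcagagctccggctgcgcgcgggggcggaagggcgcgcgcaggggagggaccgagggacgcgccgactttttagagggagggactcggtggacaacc
Counted from the start, with the first letter of the match as its position, these letters stood at −129 and −66 in Fos, at −60 in Fosb, and at −233, −213, −69 and −40 in Nr4a1. They stood at −179 and −169 in Npas4, at −177 and −109 in Egr4, and at −106 in Junb. The full 8-base palindrome TGACGTCA, present in 1.55% of windows, was found in none of the 7. The binding sequence of EGR factors (GCGGGGGCG or GCGTGGGCG, either strand), present in 3.06% of windows, occurred in Fosl2, Fosb and Nr4a1. Neither the AP-1 site (TGACTCA or TGAGTCA, in 4.46% of windows) nor the CArG box of serum response factor (in 1.47%) was found in the 7 windows. These matches are of letters in a short window and do not show binding. The RefSeq starts are not always the outer ends of the gene models given next. The windows of Fosl2, Nr4a1 and Npas4 lay inside those gene spans, and that of Fosb reached into its span. Bases before the outer starts of Fosl2, Nr4a1 and Npas4 were not searched.

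In the gene models of GRCm38, the genes lay on chromosome 12 (Fos, ENSMUSG00000021250.13, 85473890 to 85477273), 7 (Fosb, ENSMUSG00000003545.3, 19302696 to 19310051), 5 (Fosl2, ENSMUSG00000029135.10, 32135801 to 32157842) and 8 (Junb, ENSMUSG00000052837.6, 84974484 to 84978718). Egr4 (ENSMUSG00000071341.4) lay on chromosome 6 from 85511121 to 85513589, and Egr3 (ENSMUSG00000033730.4) on chromosome 14 from 70077203 to 70082614. Arc (ENSMUSG00000022602.14, 74669083 to 74672570) and Nr4a1 (ENSMUSG00000023034.7, 101254269 to 101274795) were both on chromosome 15, and Npas4 (ENSMUSG00000045903.9) was on chromosome 19 from 4984355 to 4990316. Egr1 (ENSMUSG00000038418.7) was on chromosome 18.

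Layer V neurons had the highest mean level of 7 of the 10 genes: Fos, Fosb, Egr1, Egr3, Egr4, Arc and Nr4a1. For Fos the means of L5 (38.8 TPM) and IN (38.5) were nearly equal, and IN was the higher without IN replicate 1 or without L5 replicate 1. Levels are given as TPM, in which the counts of a transcript are divided by its length and scaled to the same total in every library, so they can be set against each other between genes. Over all 10 genes the summed level was 607 to 800.0 TPM in L5, 287 to 349 in DG, 228 to 235 in MG, 155 to 213 in AS, 102 to 223 in IN and 136 to 159 in CGC. The leading gene differed by cell type: Egr1 led in L5 (251 ± 52.4 TPM, SD, n = 3), CGC, AS and IN, Egr3 in DG (122 ± 6.68) and Junb in MG (90.7 ± 6.37). In IN the means of Egr1 (38.8) and Fos (38.5) were nearly equal, and in replicate 3 Fos was above Egr1 (56.7 against 44.3). Npas4 had the lowest mean of the 10 genes in L5, DG and IN, and Fosb in CGC, AS and MG. Each library sums over all tagged cells of a tissue, so that fewer cells expressing a gene and less of its RNA per cell cannot be told apart.

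**Figure D1:**
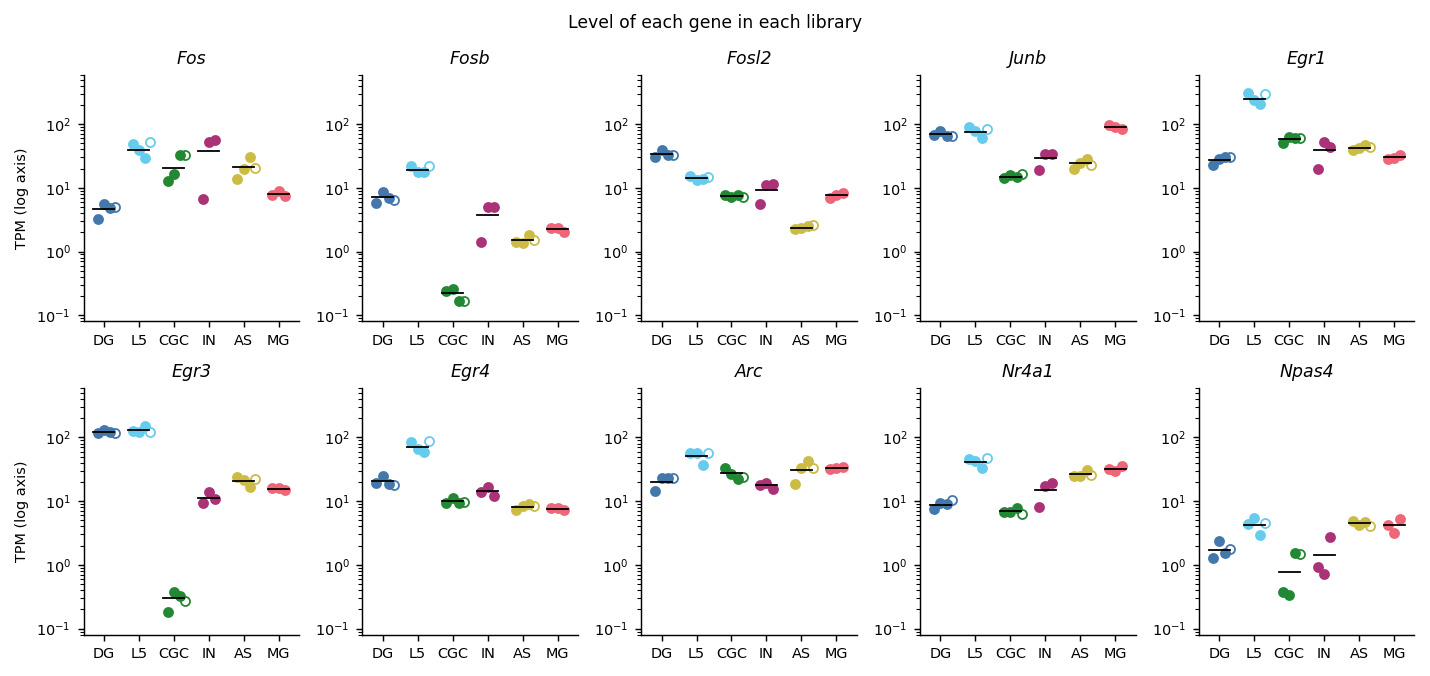
TPM of the 10 genes (log axis) in dentate gyrus granule cells (DG), layer V cortical neurons (L5), cerebellar granule cells (CGC), inhibitory interneurons (IN), astrocytes (AS) and microglia (MG). Filled points are the 3 replicates, the line is their mean, and open points are the batch 2 libraries of replicates sequenced again; L5 is highest in 7 genes, and Fosb and Egr3 lie below 0.4 TPM in CGC.

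Among the AP-1 genes, Fos, the founding member of the family, varied most between replicates. It stood at 48.5, 38.7 and 29.0 TPM in the L5 replicates, at 6.8, 51.9 and 56.7 in IN, and at 12.8, 16.4 and 32.9 in CGC. IN replicate 1 was far below the other IN replicates, and the ranges of L5, IN, AS and CGC overlapped one another. It was at 13.8, 19.7 and 30.8 TPM in AS, at 7.85, 8.82 and 7.46 in MG, and at 3.22, 5.65 and 4.87 in DG, which was lower than every other library. The edgeR test among the 6 cell types gave an adjusted p of 0.000177, one of 10 calls for the 10 genes in a test that called 97.3% of all genes.

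Fosb, a close relative of Fos, was at 21.9, 17.5 and 17.6 TPM in L5 and at 5.71, 8.75 and 6.94 in DG. It was at 0.237, 0.264 and 0.172 TPM in CGC, below every library of the other types, and the mean of L5 was 84.9 times that of CGC. IN (1.41, 4.96 and 5.04) overlapped MG (2.06 to 2.34) and AS (1.34 to 1.84). One annotated transcript (ENSMUST00000208446.1) shares the start codon of the main form (ENSMUST00000003640.3) but has an additional intron that ends its reading frame after 237 codons instead of 338, as in the truncated form ΔFosB. It made up 15.5% of the Fosb TPM in DG (range 8.35 to 20.1%) and 5.07% in L5 (4.2 to 6.35%), with no overlap, while its own level was 0.476 to 1.76 TPM in DG and 0.736 to 1.39 in L5. The shares in IN (5.94 to 9.46%), MG (2.76 to 18.2%) and CGC (0.0 to 29.8%) overlapped that in DG, and AS (0.0 to 6.49%) did not. Transcript shares are kallisto estimates from reads that these transcripts largely share, and no test was made on them.

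Fosl2, which encodes FRA-2, had another order than its relatives. It was at 30.1, 39.6 and 33.2 TPM in DG, above every other library, and at 15.6, 13.1 and 13.7 in L5. The lowest type was AS, at 2.22, 2.34 and 2.53 TPM, with no overlap with any other type, and MG (6.96 to 8.45) and CGC (7.2 to 7.78) overlapped. In Fosl2 alone of the 10 genes all DG libraries lay above every other library, which held for 8.53% of all genes tested.

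Junb, the JUN partner in this set, was at 97.3, 90.3 and 84.6 TPM in MG, at 90.3, 76.8 and 61.4 in L5, and at 66.6, 77.5 and 64.4 in DG. These 3 types overlapped in a chain, and stood above IN (19.2 to 34.3), AS (19.5 to 28.6) and CGC (14.2 to 15.7). Junb had the widest separation of the 2 glial types among the 10 genes, with a log2 fold change of AS over MG of −1.85 (SE 0.19, adjusted p = 8.9e-08 by edgeR).

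The zinc finger gene Egr1 was the most abundant of the 10 genes in any one cell type, with 307, 243 and 203 TPM in L5. All other libraries lay between 19.7 and 62.4 TPM, in the order CGC (50.8 to 62.4), AS (38.9 to 46.4), IN (19.7 to 52.5), MG (28.5 to 33.2) and DG (23.1 to 30.1). L5 was apart from all other types, CGC overlapped IN, and the types below it overlapped each their next neighbour. The 3-exon transcript of Egr1 held 90.7 to 93.2% of its TPM as means of the cell types.

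Egr3, a relative of Egr1 that binds the same sequence, had the widest range of the 10 genes. It was at 124, 121 and 149 TPM in L5 and at 116, 129 and 121 in DG, and at 0.184, 0.378 and 0.331 TPM in CGC, which put the highest mean 441 times above the lowest. The forebrain principal neurons overlapped in TPM, while in counts scaled to library size (CPM) all L5 libraries (251.6 to 299.5) were above all DG libraries (181.7 to 191.3). AS (16.8 to 23.6), MG (14.9 to 16.3) and IN (9.31 to 13.9) lay between and did not overlap. Part of the Egr3 signal, 43.9% of TPM in L5 and 33.0% in DG, was assigned to a transcript of 1 exon annotated as a retained intron (ENSMUST00000223747.1).

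Egr4 was at 85.4, 66.3 and 59.1 TPM in L5 and at 19.6, 24.7 and 18.3 in DG, and it had a single annotated transcript. IN (12.0 to 16.6), CGC (9.26 to 11.4), AS (7.27 to 9.16) and MG (7.2 to 7.8) followed. Fosb, Egr1 and Egr4 were the 3 genes for which all L5 libraries lay above every other library, against 5.31% of all genes tested. None of the 10 genes stood so in CGC (15.6% of all genes did), IN (10.2%), AS (10.4%) or MG (18.9%).

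Arc, the synaptic effector, had the narrowest range of the 10 genes, with a highest mean 2.85 times the lowest. It was at 56.2, 57.0 and 37.4 TPM in L5, at 32.3, 33.0 and 34.0 in MG, and at 18.4, 33.4 and 42.1 in AS. In AS the replicates spanned the whole range of MG and reached into that of L5. CGC (22.6 to 33.5), DG (14.5 to 23.1) and IN (15.7 to 19.5) followed, each overlapping the next.

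Nr4a1 was at 46.3, 42.3 and 33.2 TPM in L5, at 32.1, 29.4 and 35.4 in MG and at 25.0, 25.1 and 30.3 in AS. The 3 cortical types overlapped in a chain and lay above the 3 other types (IN 8.08 to 19.5, DG 7.58 to 9.51, CGC 6.64 to 7.93). Npas4, the gene described as most specific to neurons and to calcium entry, was low everywhere, with 4.89, 4.19 and 4.63 TPM in AS, 4.41, 5.35 and 2.99 in L5 and 4.17, 3.16 and 5.22 in MG. It was at 1.29 to 2.36 TPM in DG, 0.733 to 2.69 in IN and 0.339 to 1.56 in CGC, and these ranges overlapped. The 3 cortical types thus had the highest Npas4 and Nr4a1 levels. In TPM summed over transcripts, L5 was not apart from both glial types in either gene.

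The question whether these genes are higher in neurons was tested as the mean of the 4 neuronal types minus the mean of the 2 glial types on the log2 scale. Higher in neurons were 4 of the 10 genes, where 36.4% of all genes were: Fosl2 (log2 fold change 1.45, SE 0.11, adjusted p = 1.14e-09 by edgeR), Egr4 (1.2), Egr1 (0.55) and Fosb (0.53). Lower in neurons were 5 of the 10, where 46.8% of all genes were: Npas4 (−1.65, SE 0.27, adjusted p = 1.76e-05 by edgeR), Nr4a1 (−1.03), Arc (−0.53), Junb (−0.52) and Egr3 (−0.40). Fos was not called (0.41, SE 0.33, adjusted p = 0.261 by edgeR). The median log2 fold change was 0.00 for the 10 genes and −0.18 for all genes.

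In this contrast both glial types came from cortex of mice given tamoxifen. Of the neurons only L5 came from cortex, so cell class, tissue and treatment cannot be told apart in it. L5 alone was higher in Nr4a1 than AS (log2 fold change 0.788) and MG (0.682), both called by edgeR. For Arc these values were 0.548 and 0.575 (called against MG), for Junb 1.533 (called) and −0.316, and for Npas4 −0.161 and 0.046. The contrast also averages neurons of very different level. Egr3 was lower in neurons on average although all L5 and DG libraries were above all glial libraries, with CGC below 0.4 TPM. On log2(TPM + 1) values, in which low levels differ less, the sign of Egr3 turned (0.25, adjusted p = 0.00928 by limma, with a median of 0.05 over all genes). Fos and Junb also turned with the choice of libraries. Within batch 1, with AS as the only glial type and no IN, the log2 fold change was −0.75 for Fos (adjusted p = 0.0366 by edgeR). For Junb it was 0.52 there (adjusted p = 0.00335 by edgeR). Within batch 2 it was 0.87 for Fos (adjusted p = 0.156 by edgeR) and −0.32 for Junb (adjusted p = 0.0905). Without IN replicate 1, Fos was called at 0.53 (adjusted p = 0.0412 by edgeR). The call of Arc was lost with limma on log2(TPM + 1) (−0.25, adjusted p = 0.137) and within batch 1 (−0.36, adjusted p = 0.153 by edgeR), and that of Fosb within batch 2 (0.59, adjusted p = 0.195).

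Layer V neurons stood above each other cell type in most of the 10 genes. Against DG, which carry the same Rbp4-Cre, 8 of 10 genes were higher in L5 (30.3% of all genes were) and Fosl2 was lower (−1.05, SE 0.17, adjusted p = 3.28e-05 by edgeR; 33.1% of all genes were lower). The largest differences were those of Egr1 (3.43, SE 0.25), Fos (3.41, SE 0.59) and Nr4a1 (2.55, SE 0.27), and Junb was not called (0.35, SE 0.19, adjusted p = 0.107 by edgeR). Junb was called without the low-count filter (adjusted p = 0.0148 by edgeR), with batch as a covariate (0.0189) and without L5 replicate 3 (0.0358). The call of Egr3 was lost with limma on log2(TPM + 1) (0.1, adjusted p = 0.541). The median log2 fold change was 1.72 for the 10 genes and −0.05 for all genes.

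Against AS from the same tissue, 7 of 10 genes were higher in L5 and none lower (38.2% and 39.0% of all genes), led by Fosb (3.49, SE 0.29), Egr4 (2.97, SE 0.17) and Egr3 (2.78, SE 0.11). Fos (0.83, adjusted p = 0.141), Arc (0.55, adjusted p = 0.0546) and Npas4 (−0.16, adjusted p = 0.744) were not called by edgeR. The call of Arc turned on the setting, since 5 of the other settings and 11 of the 18 fits with a library left out put it past the threshold.

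A further 2 pairs were chosen after the values were seen. Against CGC all 10 genes were higher in L5 (42.0% of all genes were, and 34.1% were lower), from Egr3 (8.99, SE 0.18) and Fosb (6.65, SE 0.39) to Arc (1.02, SE 0.25); for Fos (1.17, SE 0.51, adjusted p = 0.0466 by edgeR) the call was lost with DESeq2 (adjusted p = 0.0657), with limma and when any 1 of 13 libraries was left out. Against IN 9 of 10 were higher (29.0% of all genes were, and 31.7% were lower), led by Egr3 (3.97, SE 0.12) and Egr1 (2.98, SE 0.24), and Fos was not called (0.42, adjusted p = 0.491 by edgeR). The pair with MG was fitted but not planned for counting, and no other settings are given for it. There 8 of 10 genes were higher in L5 and 0 lower, where 8314 of 20524 genes were higher and 8770 lower. Junb and Npas4 were not called.

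**Figure D2:**
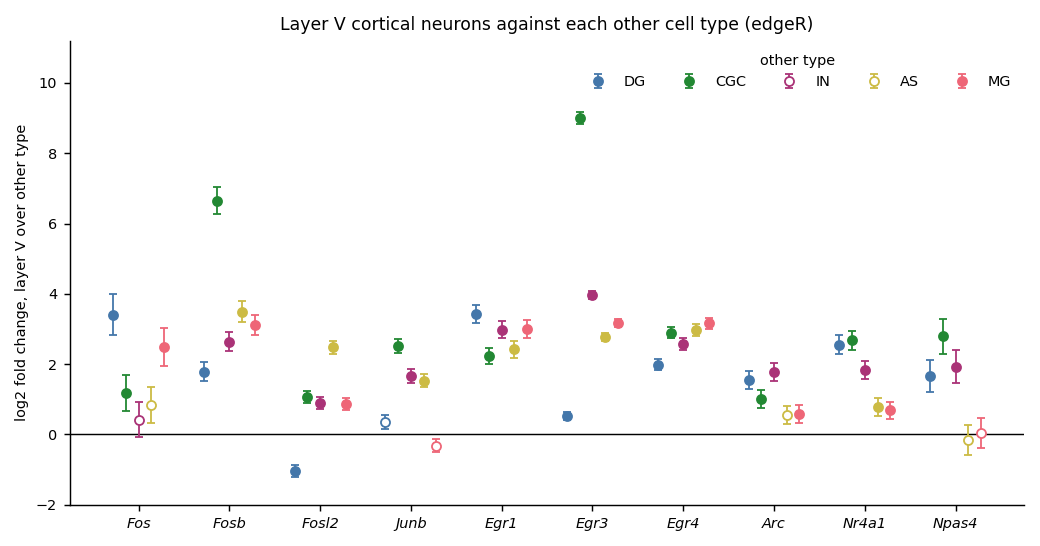
Log2 fold change of layer V cortical neurons (L5) over each other cell type for the 10 genes (edgeR, y axis, log2 scale; bars are standard errors; filled points passed an adjusted p of 0.05, open points did not). All 10 genes lie above 0 against CGC, Fosl2 is the gene below 0 against DG, and Npas4 lies near 0 against both glial types.

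The other neuronal pairs divided the genes. Between the hippocampal types DG and IN, 5 of 10 genes were higher in DG (32.6% of all genes were) and 2 lower (31.2%). Higher in DG were Egr3 (3.45, SE 0.12), Fosl2 (1.95), Junb (1.30), Fosb (0.85) and Egr4 (0.59), while Fos (−2.99, SE 0.58) and Nr4a1 (−0.72, SE 0.27) were lower. The call of Nr4a1 was lost without DG replicate 1 or 3 or IN replicate 2 or 3 (adjusted p = 0.05 to 0.1 by edgeR). That of Fosb was lost without DG replicate 2 (adjusted p = 0.0509 by edgeR). Egr1 (−0.445, adjusted p = 0.104 by edgeR), Arc and Npas4 were not called. Egr1 passed the threshold without IN replicate 1 (adjusted p = 0.00062 by edgeR), without TMM factors (0.0411) and without the low-count filter (0.00623). Between DG and CGC, 5 of 10 were higher in DG (40.8% of all genes) and 2 lower (33.1%): Egr3 (8.48, SE 0.17), Fosb (4.86), Junb (2.16), Fosl2 (2.10) and Egr4 (0.92) were higher, and Fos (−2.23, SE 0.58) and Egr1 (−1.20, SE 0.23) lower. Arc (−0.53, adjusted p = 0.0696 by edgeR), Npas4 (1.13, adjusted p = 0.0568) and Nr4a1 were not called. Arc passed the threshold with batch as a covariate (adjusted p = 0.0284 by edgeR), without the filter (0.00416) and with any 1 of 9 libraries left out. Npas4 passed it without TMM factors (0.0417), without the filter (0.00999), with limma (0.0466) and without CGC replicate 3 (0.00105) or IN replicate 3 (0.0334). DG libraries thus combined the lowest Fos with high Egr3, Junb and Fosl2. These pairs share the DG libraries, and their values are not independent of each other.

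Between the glial types, 3 of 10 genes were higher in AS (39.8% of all genes were) and 2 lower (36.3%). Fos (1.64, SE 0.54, adjusted p = 0.0101 by edgeR), Egr1 (0.58) and Egr3 (0.39) were higher in AS, and Junb (−1.85) and Fosl2 (−1.62, SE 0.18) lower. Without AS replicate 3, and with limma on log2(TPM + 1), 3 genes were called in place of 5. The call of Egr1 was the least stable, lost without TMM factors (adjusted p = 0.0936 by edgeR), with limma (0.0994) and when any 1 of 7 libraries was left out (up to 0.159). That of Fos was lost with limma (adjusted p = 0.0587) and without AS replicate 3 (adjusted p = 0.068 by edgeR). Fosb, Egr4, Arc, Nr4a1 and Npas4 were not called, with log2 fold changes between −0.38 and 0.21.

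Neuronal RNA was present in the glial libraries, so the glial levels of the immediate early genes are given beside those of neuronal markers. Relative to the L5 mean TPM, the 8 neuronal markers (Rbfox3, Snap25, Syt1, Tubb3, Stmn2, Slc17a7, Neurod2 and Neurod6) stood at 10.3 to 18% in AS and at 3.91 to 14% in MG, and none was at 0. Fosb (8.07%), Egr4 (11.7%), Egr3 (15.8%), Fosl2 (16.7%) and Egr1 (17.0%) were within or below that range in AS. Npas4 (107%), Nr4a1 (66%), Arc (62.4%), Fos (55.3%) and Junb (31.7%) were above it. The interneuron markers were not part of the 8. Gad1 (47.4 against 14.9 TPM), Gad2, Slc32a1, Dlx1 and Npy had higher means in AS than in L5. Sst (131 against 256 TPM) and Pvalb had lower ones.

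In MG, Fosb (11.8%), Egr1 (12.1%), Egr3 (12.0%) and Egr4 (10.8%) were below Rbfox3 (14%), the highest of these neuronal markers, and above the other 7 (at most 9.08%). Junb (119%), Npas4 (98.5%), Nr4a1 (79.5%), Arc (65.9%), Fosl2 (54.5%) and Fos (20.7%) were above it. Of the interneuron markers, Gad1 (16.4 TPM) and Dlx1 (3.78) had higher means in MG than in L5 (14.9 and 2.03), and the others lower ones. The part of neuronal RNA in these glial levels was not tested.

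**Figure D3:**
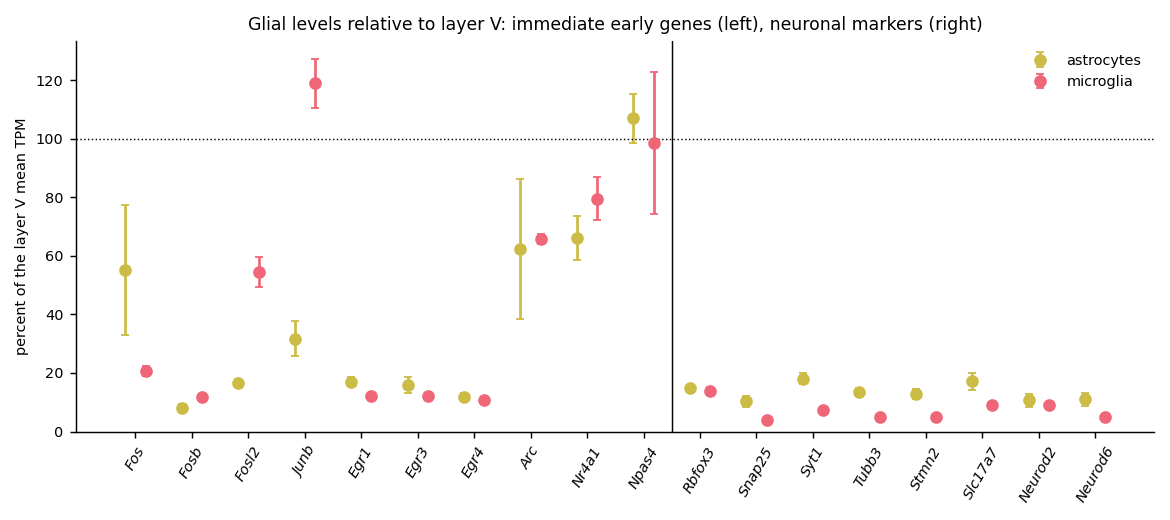
TPM in astrocytes and microglia as percent of the layer V mean (y axis) for the 10 immediate early genes (left of the line) and 8 neuronal markers (right); points are means and bars SD over 3 replicates. The markers lie at 10.3 to 18% in astrocytes and, apart from Rbfox3 (14%), at 3.91 to 9.08% in microglia, Fosb, Egr1, Egr3 and Egr4 lie at 8.07 to 17%, and Arc, Nr4a1 and Npas4 lie at 62.4 to 107%.

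The transcript makeup of Npas4 and Nr4a1 also differed between cell types. The protein-coding transcript held 96.2% of Npas4 TPM in L5 (range 91.4 to 100%) against 58.4% in AS (44.1 to 75.6%) and 57.1% in MG (47.1 to 63.7%). It was also low in DG (65.7%, 52.9 to 83%) and CGC (62.9%, 53.9 to 68.2%), which overlapped the glial types, and 83.1% in IN. A retained-intron transcript of Npas4 (ENSMUST00000237172.1) was at 0.598 to 2.21 TPM in AS and 0.713 to 2.13 in MG, and at most 0.0662 in L5. Counted on the coding transcript alone, Npas4 was at 2.99 to 4.89 TPM in L5, 2.15 to 3.5 in AS and 1.91 to 2.66 in MG, so that L5 lay above MG and overlapped AS. For Nr4a1, a retained-intron transcript (ENSMUST00000231153.1) held 14.5% of TPM in AS and 10.6% in MG, and 0.133% in L5. A coding transcript of 13 codons (ENSMUST00000230814.1) held 10.6% in AS, 17.1% in MG, 6.96% in IN and 0.971% in L5. Counted on all its coding transcripts, Nr4a1 was at 33.2 to 46.3 TPM in L5, 27.5 to 30.7 in MG and 19.4 to 27.9 in AS. On that count all L5 libraries lay above all glial libraries. These transcript levels are estimates as well, and no test was made on them.

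The genes were more variable between replicates than most genes. The SD of log2 CPM within cell types, pooled over the 6 types, had a median of 0.36 for the 10 genes and 0.18 for all genes tested, and 10 of 10 were above the median gene. It was highest for Fos (0.81, above 88.2% of genes), Npas4 (0.71) and Fosb (0.45), and lowest for Egr4 (0.22) and Egr3 (0.23). The 12314 genes in the same expression bins as the 10 had a median SD of 0.09. The edgeR dispersion of the 10 genes was 6.35 times the trend at their expression level in the median (22.9 times for Fos), and 0.57 times for all genes. The spread was not alike in all types: the median SD of the 10 genes was 0.61 in IN, 0.28 in L5 and AS, and 0.10 in MG. In MG the median was 0.13 for all genes and 0.08 for the genes in the same expression bins. Without IN, 9 of 10 genes were above the median gene, with a median of 0.23.

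Differences were smaller where a replicate was sequenced again. For the 4 replicates sequenced in both batches, the median difference between the libraries over the 10 genes was 0.05 to 0.13 log2 CPM regardless of sign, and the largest of the 40 differences was 0.22. Fos was at 32.9 TPM in CGC replicate 3 in batch 1 and 32.7 in batch 2, while the other CGC replicates were at 12.8 and 16.4. In L5 replicate 1 it was at 48.5 and 53.0 TPM. Each of the 4 batch 2 libraries was nearest to its own replicate over the 10 genes, as in L5 replicate 1, at a mean distance of 0.05 from itself and 0.22 and 0.54 from replicates 2 and 3. Whether the second libraries were made anew or only sequenced anew is not given in the sources used here, so this compares sequencing batches and not dissections.

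**Figure D4:**
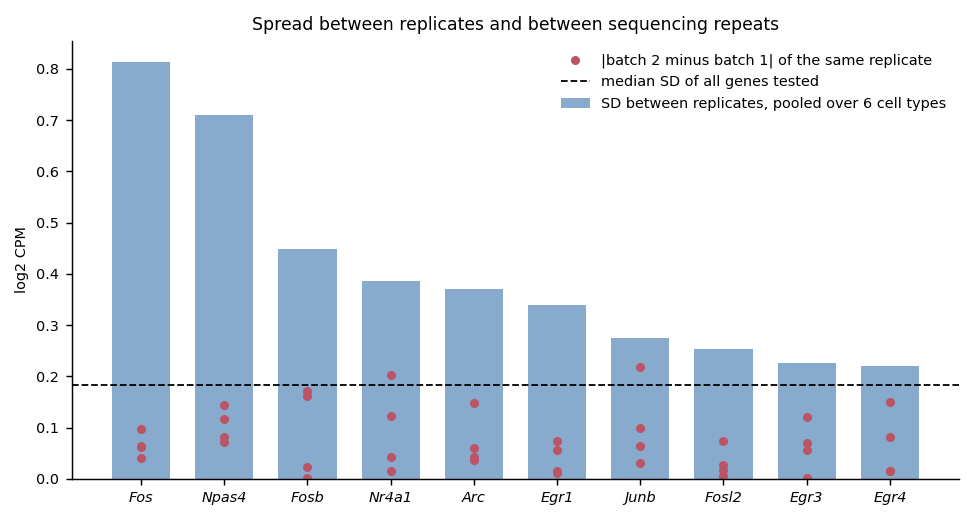
Bars show the SD of log2 CPM between replicates of a cell type, pooled over 6 types, for each gene. Points show the difference, regardless of sign, between the batch 1 and batch 2 library of each of 4 replicates, and the dashed line is the median SD of all genes tested (0.18); all points lie below the bar of their gene.

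In several cell types the genes moved together between replicates. IN replicate 1 was low in Fos (6.8 against 51.9 and 56.7 TPM), Fosb (1.41 against 4.96 and 5.04), Egr1 (19.7 against 52.5 and 44.3) and Nr4a1 (8.08 against 17.6 and 19.5). Its log2 CPM was under the mean of the other replicates by over 1 in these 4 genes, which was so for 4.24% of all genes tested, and it was the lowest of the 3 in 7 of the 10 genes and in 30.4% of all genes. Egr4 (14 against 16.6 and 12.0 TPM) and Arc (17.6 against 19.5 and 15.7) did not follow.

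In the same IN libraries the interneuron markers summed to 10700, 10600 and 11700 TPM and the neuronal markers to 6720, 7280 and 7110, so these did not set replicate 1 apart. Zic1 (2.16 to 36.4 TPM) and Zic2 (1.81 to 28.9) varied between these libraries and carried the sum of the cerebellar granule cell list (66.1, 52.0 and 4.72), while Gabra6 (at most 0.0962) and Cbln3 (0.611 to 0.67) of that list were near 0 in all 3. Replicates 1 and 2 pooled a male and a female mouse and replicate 3 pooled males. The part of these differences in the levels of the 10 genes was not tested.

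In AS, replicate 1 was lowest and replicate 3 highest in Fos (13.8, 19.7 and 30.8 TPM), Junb (19.5, 24.3 and 28.6), Egr1 (38.9, 42.7 and 46.4), Egr4 (7.27, 8.25 and 9.16), Arc (18.4, 33.4 and 42.1) and Nr4a1 (25.0, 25.1 and 30.3). Egr3 was highest in replicate 1 and lowest in replicate 3 (23.6, 21.7 and 16.8). In L5, replicate 3 was below the mean of its type in 9 of 10 genes, with Egr3 the exception, and it was the male among the batch 1 libraries of L5, with Ddx3y at 26.96 TPM. In DG, replicate 2, the library with the lowest total count, was above the mean in 10 of 10, by 0.008 (Egr3) to 0.502 log2 CPM (Npas4). No share over all genes is given beside these counts of L5 and DG. In CGC, replicate 3 was high in Fos and Npas4 (1.56 against 0.38 and 0.339 TPM) and not in Arc (22.6 against 33.5 and 27.0).

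Over the 18 libraries, deviations from the cell type mean correlated positively in 41 of the 45 pairs of genes, with a median r of 0.33, and the closest pairs included Fos with Nr4a1 (r = 0.94), Egr1 with Nr4a1 (0.92) and Fos with Egr1 (0.91). Without IN the median r was 0.59 and 37 of 45 pairs were above 0. Egr3 stood apart, with an r of 0.13 with the mean deviation of the 10 genes, in which it is itself included. These coefficients describe 18 libraries that share cell type means and depth and carry no test.

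**Figure D5:**
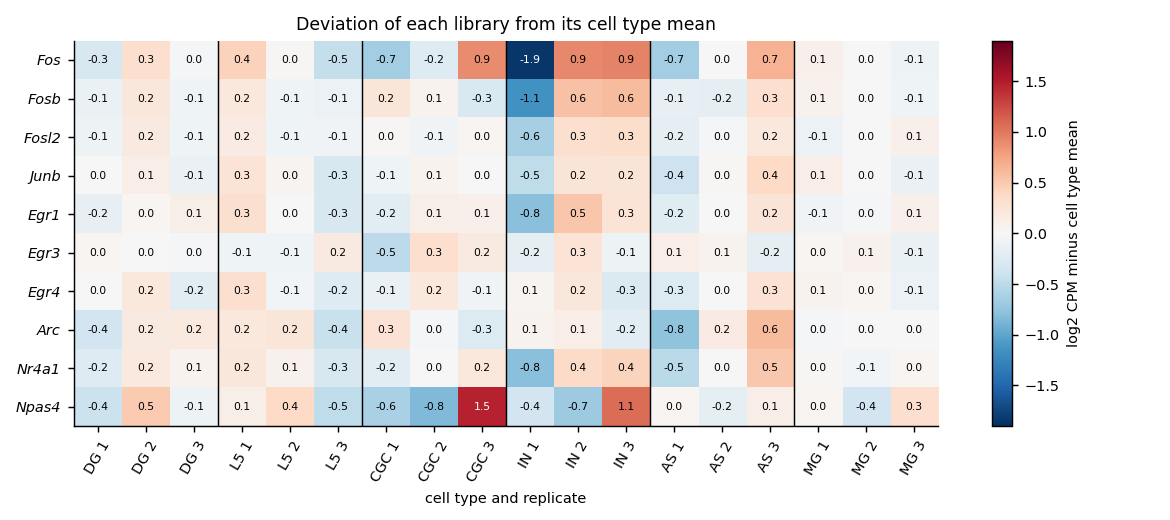
Deviation of each of the 18 libraries from the mean of its cell type in log2 CPM (colour and number) for the 10 genes; columns are cell type and replicate. IN 1 is below its mean in 8 of 10 genes, AS 1 and AS 3 and L5 1 and L5 3 deviate in opposite directions in most genes, and the MG columns lie near 0 except for Npas4.

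Related genes were looked at in lists of the pathway. Of 29 other immediate early genes, 28 were tested (Fosl1 did not pass the filter), 8 were higher in neurons and 16 lower, with a median log2 fold change of −0.55. Over all genes tested, for this list and the lists that follow, 36.4% were higher and 46.8% lower, with a median of −0.18. The highest were Nr4a3 (2.03, SE 0.16), a relative of Nr4a1, Rasd1 (1.39), a RAS-like protein, and Homer1 (1.17), a postsynaptic scaffold. The lowest were Ccn1 (−5.86, SE 0.22), a matrix protein at 31.3 TPM in AS, Zfp36 (−4.54), an mRNA decay factor at 29.2 TPM in MG, and Maff (−3.36), a small MAF factor.

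Among 16 later activity-regulated genes, 10 were higher in neurons and 4 lower (median 0.53). The neuropeptide precursor Scg2 (3.22) and the phosphatases Dusp5 (2.30) and Dusp4 (2.28) were highest, and the chromatin factor Baz1a (−4.84), the phosphatase Dusp6 (−3.14) and the synaptic protein Nptx2 (−1.22) lowest. Nptx2 was nonetheless at 73.5 TPM in L5, and at 0.05 in CGC.

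Of 29 upstream kinases and transcription factors, 17 were higher in neurons and 10 lower (median 0.47). The calcium/calmodulin kinases Camk4 (3.01) and Camk2b (2.68) and the SRF partner Elk1 (1.94) were highest, and Elk3 (−3.37), the kinase Rps6ka1 (−2.40) and Atf1 (−1.58) lowest. Of 10 heat shock genes, 7 were higher in neurons and 3 lower (median 0.90), with Hspa1a (2.00), Hsp90aa1 (1.9) and Hsph1 (1.60) highest and Hspb1 (−3.90), Bag3 (−3.05) and Hspa5 (−0.56) lowest.

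Between replicates, the other immediate early genes had a median r of 0.33 with the mean deviation of the 10 genes over 18 libraries, against −0.01 for all genes tested. It was 0.07 for the later genes, −0.03 for the upstream genes and −0.22 for the heat shock genes. In IN replicate 1, 19 of the 28 other immediate early genes were at their lowest of 3 (67.9%), as were 6 of 16 later genes, 5 of 29 upstream genes and 0 of 10 heat shock genes. Of all genes tested, 30.4% were. The differences were small in most of the 28. Only 2 (7.14%) were under the mean of the other replicates by over 1 log2 CPM, against 4 of the 10 genes and 4.24% of all genes tested. The median difference was −0.17 for the 28 and −0.84 for the 10 genes.

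Some genes outside these lists had patterns close to those of the 10. Over the 6 cell type means, the 5 with the highest Pearson r with the mean standardized pattern, among 11992 genes of at least 5 CPM, were Pbdc1 (0.99), Pdlim1 (0.98), Ccl27a (0.97), Nhp2 (0.97) and Adcyap1 (0.96). Pbdc1 varied little, from 3.66 in CGC to 4.25 log2 CPM in L5, while Adcyap1, which encodes the neuropeptide PACAP, ran from −2.56 in CGC to 5.97 in L5. With 6 points and this many genes, high coefficients are common.

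Over the deviations of 18 libraries the closest 10 were Ubxn8 (r = 0.83), Cdkn2aip (0.81), Tnrc6c (0.80), Sept2 (0.80), Trim30d (0.80), Tob2 (0.80), Zfp882 (0.79), Fzd2 (0.79), Xpc (0.78) and Fam205a3 (0.78). None of them is in the lists above. With IN left out, the coefficients of these genes lay between 0.40 and 0.79, and Dusp5, from the list of later genes, was the fifth closest at 0.87. Both rankings took the highest of 11992 genes over few libraries with the cell type means removed. With this many genes, some coefficients of this size can arise without any link, and no test was made on them.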

How the data were processed

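Ribosome-bound mRNA was sequenced from 6 cell types with 3 biological replicates each, in stranded libraries. After adapter removal (cutadapt 3.5), the authors ran kallisto 0.46.2 on the GENCODE transcripts of the GRCm38 build. Per transcript they deposited estimated counts, which are not normalized, and TPM, which are scaled for transcript length and library total. The authors' own differential test was not used.

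Estimated counts and TPM were summed over the transcripts of a gene. A single library stood for each replicate, that of batch 1 where both batches held it. Estimated counts, rounded to whole numbers, were fitted for all 6 cell types in 1 model by edgeR 4.0.16 (quasi-likelihood, TMM, filterByExpr) in R 4.3.3, with Benjamini-Hochberg adjustment over 20524 genes and a threshold of 0.05. Standard errors are the log2 fold change over the square root of F. CPM are TMM-scaled, and log2 CPM used a prior count of 0.5. DESeq2 1.42.0 and limma 3.58.1 on log2(TPM + 1) were alternatives, beside other normalization, no filter, batch 2 libraries, batch as a covariate, a replicate block, single batches and leaving out each replicate. Levels, transcripts and promoters were processed in Python 3.11.15. Gene positions and transcript models came from GENCODE release M21, whose gene identifiers equal those of the files for all 10 genes, and promoters from RefSeq. The fit was tested on simulated data.

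All 10 genes are named, with, from each related list, the 3 called genes with the highest and the 3 with the lowest neurons versus glia fold change, and the 5 and 10 genes of closest pattern. Single genes named beside these, such as Dusp5 with IN left out, were chosen after their values were seen. The genes, lists and comparisons were chosen with earlier results of these data known. Replicates are separate animals or pools, and p-values measure the spread between them. Counts give precision for counting error only.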

Additional observations from a re-analysis of the deposited data

How the results depend on the processing

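The count of genes called among the 10 stayed within 1.5 times its value in all comparisons and settings run, except in astrocytes versus microglia, where it was 3 with limma on log2(TPM + 1) against 5, and 3 to 6 when each replicate was left out. Of 580 values of single genes under other settings, 546 kept their direction and side of the threshold, and of 1440 with a replicate left out, 1367 did. The sign of the neurons versus glia log2 fold change turned for Fos (−0.75) and Junb (0.52) in batch 1 alone and for Egr3 (0.25) with limma. In astrocytes versus microglia, where neither gene was called, it turned for Arc without TMM factors (−0.11) and with limma (−0.15), and for Nr4a1 without a filter (0.003). With a replicate left out, uncalled log2 fold changes that crossed 0 were those of Npas4 in L5 versus AS (−0.33 to 0.10), Npas4 in DG versus IN (−0.084 to 0.955), Nr4a1 in DG versus CGC (−0.031 to 0.167), Egr4 (−0.005 to 0.262), Arc (−0.35 to 0.27) and Nr4a1 (−0.441 to 0.064) in AS versus MG, and Fos in L5 versus IN (−0.062 to 0.74, negative without IN replicate 1). The cause was not tested. The samples shared only replicate numbers: over all genes, deviations of same-numbered libraries correlated at −0.09 to 0.10 in 45 pairs of libraries. Over the 10 genes alone these coefficients ran from −0.911 (DG and CGC, replicate 2) to 0.915 (CGC and MG, replicate 2). A fit with the replicate number as a block called 9 of the 10 genes in neurons versus glia, as without it, and changed 1 of 80 calls, Npas4 in DG versus CGC (log2 fold change 1.24, adjusted p = 0.0336 by edgeR). Leaving out TMM factors moved the median of all genes by at most 0.13 on the log2 scale. With batch as a covariate, which counts second sequencings as further libraries, 9 of the 10 genes were called in neurons versus glia, and in batch 2 alone 7. Fosb (at most 0.532 CPM) and Egr3 (at most 0.654 CPM) in CGC rest on few reads.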
